A study of Mus musculus with 13 samples.

Results

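The autophagy machinery was described here by 35 genes taken from the table by gene symbol, and all 35 had a row among the 19737 genes of the table. RNA was measured in 13 libraries of mouse microglia, the resident macrophages of the brain. Wild type mice that received an AAV PHP.eB vector carrying EGFP gave 3 libraries, and 5xFAD mice that received the same EGFP vector gave 2. 5xFAD mice given AAV PHP.eB-circPOLR2A, a vector for a circular RNA, gave 4 libraries, and 5xFAD; PKR KO mice, for which the labels name no vector, gave 4. AAV PHP.eB is an adeno-associated virus capsid that reaches the mouse brain from the blood, and 5xFAD mice are a transgenic model of amyloid deposition whose transgenes are driven by the neuronal Thy1 promoter. PKR, encoded by Eif2ak2, is a kinase that binds double-stranded RNA, and the series concerns circular RNAs that inhibit it. Neither the age nor the sex of the animals was given. The treatment labels of the 4 circRNA libraries carry different numbers, so whether all received 1 construct is not settled. The knockout libraries alone carry library names in the labels, so a separate preparation of that group and the knockout cannot be told apart. The labels do not say that libraries of a group came from separate animals, and p-values measure the spread between these libraries.

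Autophagy encloses cytoplasm in a double membrane, the autophagosome, and delivers it to the lysosome. The ULK kinase complex starts the process, a class III PI3-kinase complex marks the membrane with PI3P, lipid transfer proteins make it grow, and conjugation enzymes attach ATG8 proteins (the LC3 and GABARAP families) to it. Cargo receptors such as p62 bind both ubiquitinated cargo and ATG8 proteins, and are themselves degraded with the cargo. In microglia the same machinery takes part in the handling of damaged organelles, protein aggregates and engulfed material. The values below are RNA levels, and neither autophagic flux nor protein was measured.

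Across the whole series, depth recovered from the FPKM values (fragments divided by gene length and by the library's total) ranged from 45.2 to 69.9 M (mega) fragments a library, with the knockout libraries deepest at 57.6 to 69.9. The 10 microglia markers summed to between 2822 and 4817 FPKM in every library, and none was at 0. Eif2ak2 was at 3.35, 4.61, 3.31 and 4.16 FPKM in the knockout libraries, against 6.49 and 6.59 in 5xFAD EGFP, 7.37 to 8.11 in 5xFAD circRNA and 4.14 to 5.23 in wild type. The knockout values lay below those of both other 5xFAD groups but overlapped wild type, and the labels do not say which exons were removed. Wild type replicate 3 stood apart. Its summed FPKM of 20 markers of neurons, oligodendrocytes and astrocytes was 1941, against 525 and 456 in the other wild type libraries, 855 to 883 in 5xFAD EGFP, 449 to 1016 in 5xFAD circRNA and 381 to 588 in the knockout. In bulk RNA, fewer cells of a type and less RNA per cell cannot be told apart.

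Expressed per gene length, the machinery was led by Gabarap, an ATG8 protein, at a mean of 52.2 FPKM over the 13 libraries, and by Sqstm1, which encodes p62, at 39.1. These levels stood at the 97.2 and 96.0 percentiles of the 10817 genes tested. Ulk2 (23.9), Map1lc3a (15.8), Gabarapl1 (14.1) and Nbr1 (13.6) came next in mean FPKM. At the other end were the proteases Atg4a (1.77) and Atg4d (1.72) and the conjugation gene Atg16l2 (1.26), which stood at the 5.34 percentile. The highest library was 3.94 times the lowest for Optn, 2.37 times for Gabarap, 2.31 times for Atg16l2 and 2.11 times for Wipi1. Nbr1, Atg2b and Atg13 varied least, with the highest library 1.23, 1.24 and 1.25 times the lowest.

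**Figure D1:**
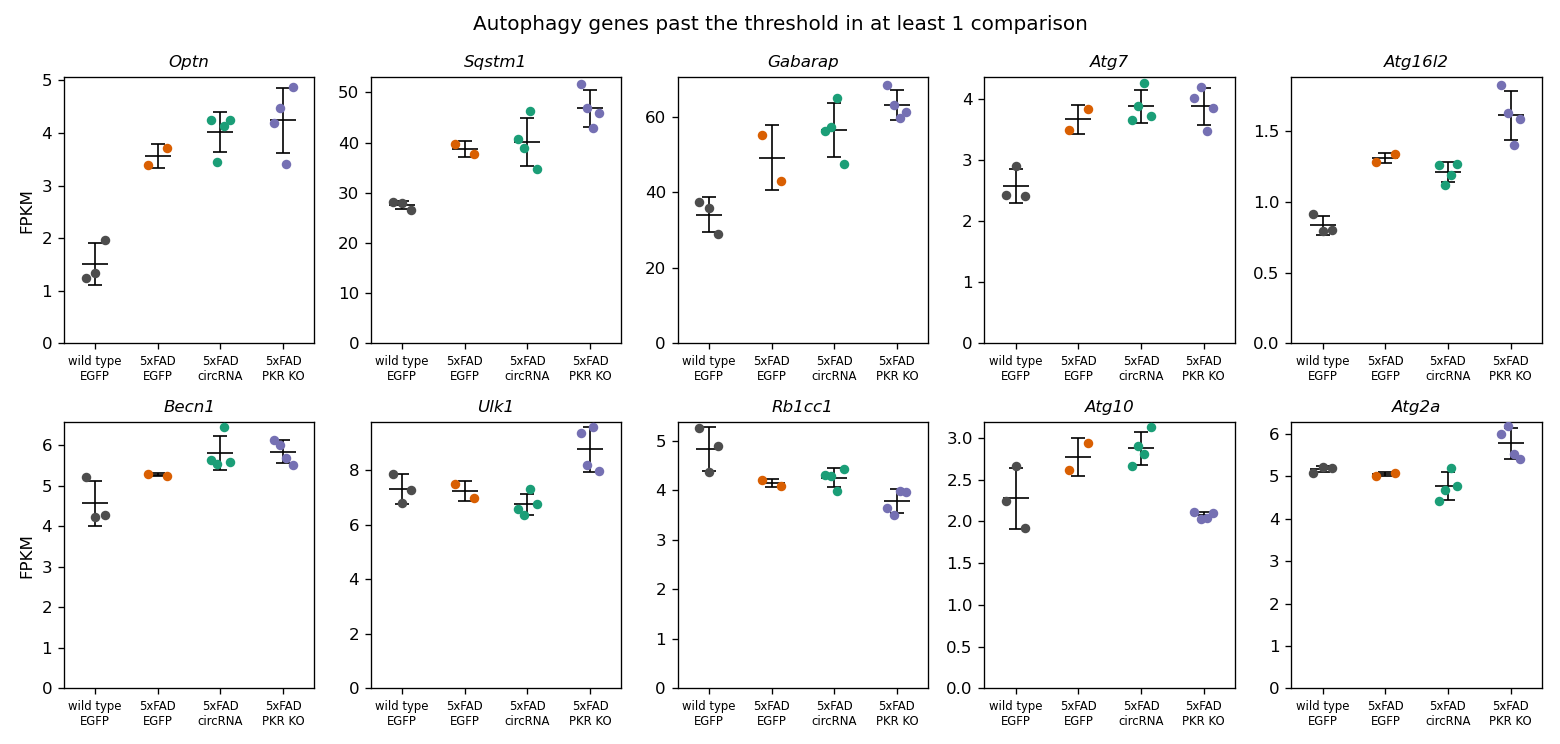
Each panel plots 1 gene, with FPKM on the y axis from 0 and the 4 groups on the x axis; points are libraries, and bars give the mean and SD. Optn, Sqstm1, Gabarap, Atg7, Atg16l2 and, narrowly, Becn1 were lower in all 3 wild type libraries than in any of the 10 5xFAD libraries. Ulk1, Atg10, Atg2a and Atg16l2 separated the knockout from the circRNA group. Between 5xFAD EGFP and wild type, ranges did not overlap for 37.6% of all genes.

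The first question was how microglial autophagy transcripts differ between 5xFAD and wild type mice that received the same vector. In 5xFAD EGFP, 5 of the 35 genes passed the threshold, an adjusted p under 0.05 by limma with Benjamini-Hochberg adjustment over all genes, and each was higher: Optn, Sqstm1, Gabarap, Atg7 and Atg16l2. That is 14.3% of the members, beside 14.0% of all genes tested (7.65% higher and 6.35% lower). Atg16l2 averaged under 1 FPKM in wild type and passed the filter on low values through the 5xFAD groups, so its calls against wild type are a description. Without it the members called were 4 (11.4% of the 35) in 5xFAD EGFP, 6 with circRNA and 7 in the knockout. The median difference in log2(FPKM + 1) was -0.02 over the 35 members and -0.03 over all genes. Ranges did not overlap between the groups for 9 members (6 higher and 3 lower), or 25.7%, beside 37.6% of all genes. The share of members that passed was close to that of all genes.

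Optn encodes optineurin, a ubiquitin-binding cargo receptor of mitophagy and of the clearance of bacteria and aggregates. It lies on chromosome 2 at 5020642 to 5064051 on the minus strand (GRCm38). In wild type it was at 1.24, 1.34 and 1.96 FPKM, and 5xFAD EGFP libraries had 3.40 and 3.72. In 5xFAD circRNA it was at 4.25, 3.45, 4.14 and 4.25 FPKM, and in the knockout at 4.18, 4.47, 3.42 and 4.87. No wild type library reached any 5xFAD library, and the 3 5xFAD groups overlapped. Mean FPKM was 2.36 times wild type in 5xFAD EGFP, a log2 difference of 0.87 (SE 0.14, adjusted p = 0.00131, limma). The same difference was 1.01 (SE 0.11, adjusted p = 4.56e-05) for 5xFAD circRNA and 1.06 (SE 0.11, adjusted p = 2.29e-05) for the knockout. These 3 comparisons share the wild type libraries. Each held under all 6 alternative settings and with any of the 13 libraries left out. Within the wild type group the highest value, 1.96, belonged to replicate 3, the library with the largest other-cell marker sum. The part of other cells in the Optn difference was not tested. The depth behind Optn was 219 to 1173 fragments a library, and 73 of its 3753 exonic bases overlap an antisense gene.

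Sqstm1 (chromosome 11, 50199366 to 50210827, minus strand) encodes p62, the receptor that gathers ubiquitinated cargo into bodies. Its level was 28.1, 28.0 and 26.6 FPKM in wild type and 39.8 and 37.6 in 5xFAD EGFP. With circRNA it was 40.8, 38.9, 46.3 and 34.7 FPKM, and in the knockout 51.7, 46.9, 42.9 and 46.0. All 10 5xFAD libraries lay above all 3 wild type libraries. The log2 difference from wild type was 0.48 (SE 0.12, adjusted p = 0.0182, limma) in 5xFAD EGFP, 0.52 (SE 0.10, adjusted p = 0.00213) in 5xFAD circRNA and 0.74 (SE 0.10, adjusted p = 0.000134) in the knockout. The first of these lost its call without either 5xFAD EGFP library (adjusted p = 0.136 and 0.0964) and with those 2 groups fitted alone (0.11), with log2 differences of 0.44 to 0.51. Of the 3356 exonic bases of Sqstm1, 580 overlap exons of Mrnip on the other strand, and how counting treated the strand is not given in the sources used here.

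Nbr1 and Tax1bp1, the remaining ubiquitin-binding receptors, did not pass as deposited in any comparison. Nbr1 ranged from 12.1 to 14.9 FPKM and its log2 difference from wild type was -0.02 (SE 0.09), 0.05 (SE 0.08) and 0.04 (SE 0.08) in 5xFAD EGFP, 5xFAD circRNA and the knockout. Tax1bp1 ranged from 6.29 to 8.94 FPKM, with differences from wild type of 0.00 (SE 0.10), 0.17 (SE 0.08) and 0.13 (SE 0.08). Under the same FPKM sum Nbr1 was called lower with circRNA (-0.22, adjusted p = 0.00811, limma) and in the knockout (-0.17, adjusted p = 0.0223), and Tax1bp1 was called higher in the knockout with median-ratio scaling (0.22, adjusted p = 0.043). Summed over the 4 receptors, the level was 49.4 ± 2.34 FPKM in wild type (SD, n = 3), 62.4 ± 2.70 in 5xFAD EGFP (n = 2), 66.0 ± 5.23 in 5xFAD circRNA (n = 4) and 72.6 ± 3.92 in the knockout (n = 4). Within that sum Optn made up 3.08% in wild type and 5.71%, 6.12% and 5.83% in the 5xFAD groups. The share of Nbr1 was 27.1% in wild type against 21.1%, 21.1% and 19.1%. These shares do not depend on how a library was scaled, and no test was run on them.

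Gabarap (chromosome 11, 69991143 to 69994951, plus strand) encodes an ATG8 protein that binds receptors and the ULK complex on the forming membrane. It was at 37.4, 35.9 and 28.9 FPKM in wild type, 55.2 and 43.0 in 5xFAD EGFP, 56.3, 57.1, 64.9 and 47.6 with circRNA, and 68.4, 63.0, 59.5 and 61.1 in the knockout. Wild type libraries were below every 5xFAD library, and the knockout values lay above both 5xFAD EGFP values. The log2 difference from wild type was 0.51 (SE 0.15, adjusted p = 0.0429, limma) in 5xFAD EGFP, 0.71 (SE 0.13, adjusted p = 0.00147) with circRNA and 0.87 (SE 0.13, adjusted p = 0.000264) in the knockout. The call in 5xFAD EGFP was marginal. It was lost under 3 of 6 settings and in 10 of 13 fits with 1 library left out, at adjusted p-values of up to 0.344, without 5xFAD EGFP replicate 1, where the difference was 0.34. Both other calls held in every one of those fits.

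The other 4 ATG8 genes did not pass as deposited in any comparison. Map1lc3a ranged from 13.2 to 21.5 FPKM, Map1lc3b from 5.95 to 8.84, Gabarapl1 from 10.7 to 16.7 and Gabarapl2 from 6.73 to 9.57. Map1lc3b, the gene of the LC3 protein most often followed as an autophagosome marker, differed from wild type by 0.03 (SE 0.12) in 5xFAD EGFP, 0.19 (SE 0.10) with circRNA and 0.23 (SE 0.10) in the knockout, with limma adjusted p-values of 0.891, 0.188 and 0.0866. With median-ratio scaling of the libraries it was called higher in the knockout (0.32, adjusted p = 0.00382). Gabarapl2 differed by -0.16 (SE 0.13), -0.04 (SE 0.11) and -0.12 (SE 0.11) in the same order. With each library set to the same FPKM sum it was called lower in all 3, by -0.32, -0.30 and -0.33 (adjusted p = 0.0404, 0.0158 and 0.00825, limma). Gabarap made up 44.2% ± 4.72 (SD, n = 3) of the ATG8 sum in wild type, 51.9% ± 0.93 (n = 2) in 5xFAD EGFP, 53.7% ± 2.08 (n = 4) with circRNA and 58.4% ± 2.07 (n = 4) in the knockout. Its lowest share among the 5xFAD libraries, 51.2%, was above its highest in wild type, 48.5%, again as a description with no test.

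**Figure D2:**
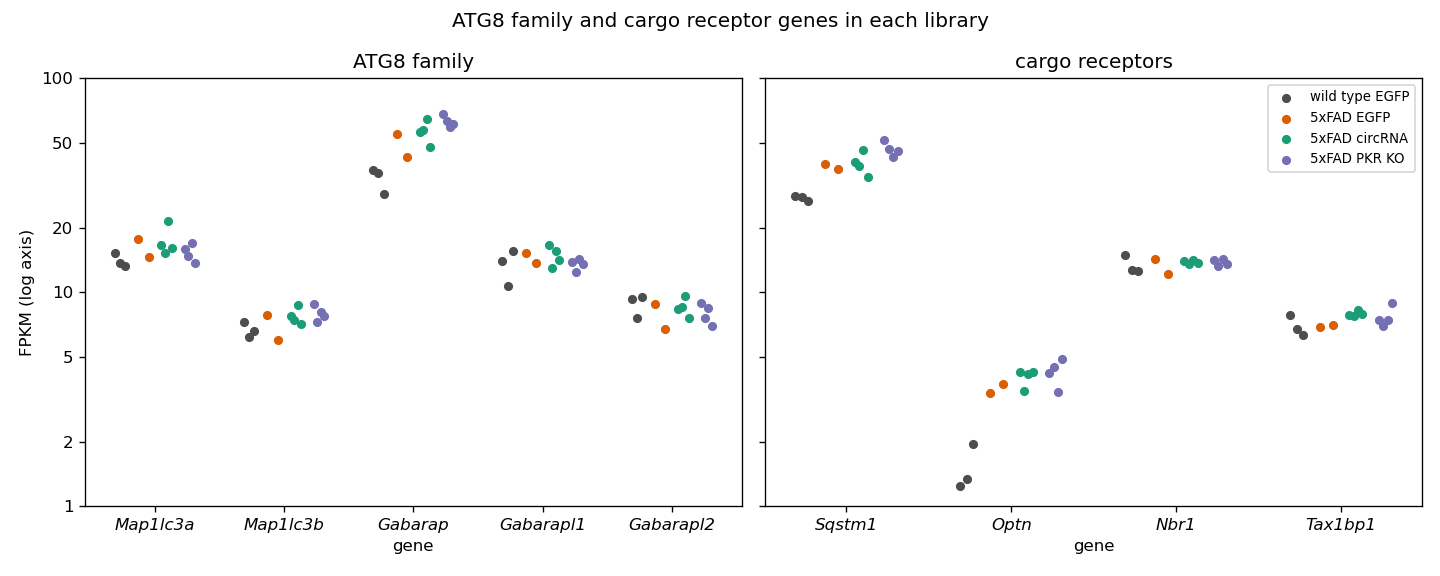
FPKM on a log axis is plotted for each ATG8 family gene (left) and cargo receptor (right), 1 point a library and 1 colour a group. Gabarap, Sqstm1 and Optn step up from wild type to the 5xFAD groups, while Gabarapl2 and Nbr1 lie within 6.73 to 9.57 and 12.1 to 14.9 FPKM in all groups on this scale, as deposited.

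Among the 7 conjugation genes, Atg7 and Atg16l2 rose in all 3 5xFAD groups. Atg7 (chromosome 6, 114643097 to 114860614, plus strand) encodes the E1-like enzyme that activates both ATG8 proteins and Atg12. It was at 2.42, 2.89 and 2.41 FPKM in wild type, 3.49 and 3.83 in 5xFAD EGFP, 3.65, 3.88, 4.25 and 3.72 with circRNA, and 4.01, 4.18, 3.47 and 3.85 in the knockout. The wild type libraries were below all others, and the 5xFAD groups overlapped. Log2 differences from wild type were 0.38 (SE 0.09, adjusted p = 0.0126, limma), 0.45 (SE 0.07, adjusted p = 0.000783) and 0.45 (SE 0.07, adjusted p = 0.000621). Without 5xFAD EGFP replicate 2 the first fell to 0.33 with an adjusted p of 0.143, and it was also lost with every library set to the same FPKM sum (0.26, adjusted p = 0.0524) and with those 2 groups fitted alone (0.114). Both other calls held in each fit run.

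Atg16l2 (chromosome 7, 101263034 to 101302251, minus strand) encodes a paralogue of Atg16l1, the subunit that directs ATG8 conjugation to the membrane. It had 0.91, 0.79 and 0.80 FPKM in wild type, 1.29 and 1.34 in 5xFAD EGFP, 1.26, 1.12, 1.19 and 1.27 with circRNA, and 1.83, 1.63, 1.40 and 1.59 in the knockout. Each knockout library was above each library of the other groups. Since its wild type mean was under the filter on low values, its calls against wild type are a description, as given above. The differences from wild type were 0.33 (SE 0.08, adjusted p = 0.0177, limma), 0.27 (SE 0.07, adjusted p = 0.013) and 0.51 (SE 0.07, adjusted p = 0.00015), on a log scale that understates the change of a gene near 1 FPKM. In 5xFAD EGFP the call was lost without replicate 1 (0.088) or 2 (0.145) of that group and with both groups fitted alone (0.112), and with circRNA under the same FPKM sum (0.136) and both groups alone (0.0502). Atg16l1 itself, at 3.78 to 4.94 FPKM, did not pass as deposited in any comparison. Neither did Atg3 (4.89 to 7.86 FPKM), Atg5 (6.25 to 11.7) or Atg12 (2.15 to 3.15), which encode the E2-like enzyme for ATG8 proteins and both partners of the Atg12-Atg5 conjugate.

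The start regions of 29 of the 35 genes were matched in RefSeq (GRCm38.p6) in 33 windows of 250 bases before the start. Of the 5 genes called higher in each 5xFAD group, the windows of Optn and Atg7 overlap no annotated exon and are shown. Bases in capitals mark CACGTG, the E-box core read by the MiT/TFE factors that drive lysosomal and autophagy genes. The Optn window is chr2:5064118-5064367 on the minus strand. The Atg7 window is chr6:114670846-114671095 on the plus strand, before a RefSeq start that lies inside the gene as GENCODE annotates it, and its E-box spans bases -132 to -127 from that start.
Optn: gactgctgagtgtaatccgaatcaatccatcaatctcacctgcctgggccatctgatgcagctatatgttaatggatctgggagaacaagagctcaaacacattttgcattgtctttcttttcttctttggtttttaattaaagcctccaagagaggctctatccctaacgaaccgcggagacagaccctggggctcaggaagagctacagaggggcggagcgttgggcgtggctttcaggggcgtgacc
Atg7: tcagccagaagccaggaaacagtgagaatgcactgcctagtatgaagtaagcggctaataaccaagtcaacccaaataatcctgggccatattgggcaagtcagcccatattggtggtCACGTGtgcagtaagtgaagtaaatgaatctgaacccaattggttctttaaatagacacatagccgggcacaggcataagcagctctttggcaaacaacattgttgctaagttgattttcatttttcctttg
Counting both strands, CACGTG was in 3 of the 33 member windows (Atg3, Atg5 and Atg7), or 9.09%, and in 6.02% of all 32851 windows. TGACNNNGC, the core of the antioxidant response element, was in 3 (Atg13, Tax1bp1 and Ulk2), or 9.09%, against 10.2%. A match describes letters, not binding.

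The second comparison asked what the circRNA vector changed within 5xFAD mice. None of the 35 genes passed against 5xFAD EGFP, beside 0.0% of all genes by limma, and 0 of 35 had an unadjusted p under 0.05, beside 4.83% of all genes. Log2 differences of the members ran from -0.09 to 0.24 with a median of 0.05, against 0.08 over all genes. Ranges did not overlap for 4 members, or 11.4%, beside 19.3% of all genes. The genes with the smallest p-values were Tax1bp1, Atg5 and Pik3r4, which encodes the regulatory subunit Vps15. Tax1bp1 was at 7.84, 7.78, 8.25 and 7.91 FPKM with circRNA and 6.84 and 7.01 with EGFP, which did not overlap, a difference of 0.17 (SE 0.10). Atg5 was at 10.2, 10.3, 11.7 and 8.32 FPKM against 8.43 and 8.28, which overlapped, a difference of 0.24 (SE 0.14). Pik3r4 was at 4.77, 4.91, 5.51 and 4.96 FPKM against 4.98 and 4.15, a difference of 0.12 (SE 0.08). The limma adjusted p was 0.739 for each of the 3.

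For the genes raised in 5xFAD, the circRNA libraries were on the same side of wild type as the EGFP libraries. Against 5xFAD EGFP, the circRNA difference was 0.14 (SE 0.13) for Optn, 0.05 (SE 0.11) for Sqstm1, 0.20 (SE 0.14) for Gabarap, 0.06 (SE 0.08) for Atg7 and -0.07 (SE 0.08) for Atg16l2. The EGFP group held 2 libraries, and differences of the size of these standard errors were not detectable. In simulated data, the circRNA comparison with 5xFAD EGFP recovered 49.5% of genes changed by a log2 difference of 0.5. The comparison with wild type had 7 of 35 genes higher and 0 lower, beside 25.8% of all genes (17.8% higher and 8.05% lower), with a median difference of 0.03 against 0.02. To the 5 genes above it added Becn1 and Atg10.

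Becn1 (chromosome 11, 101285952 to 101302286, minus strand) encodes Beclin 1, the scaffold of the class III PI3-kinase complexes. It was at 5.20, 4.22 and 4.28 FPKM in wild type, 5.29 and 5.24 in 5xFAD EGFP, 5.64, 5.54, 6.44 and 5.59 with circRNA, and 6.13, 5.99, 5.69 and 5.50 in the knockout. The wild type libraries were lower than all others, with replicate 1 close to the EGFP values. The difference from wild type was 0.17 (SE 0.09, adjusted p = 0.244, limma) in 5xFAD EGFP, 0.29 (SE 0.07, adjusted p = 0.0128) with circRNA and 0.30 (SE 0.07, adjusted p = 0.00852) in the knockout. Under the same FPKM sum both calls were lost, at adjusted p-values of 0.48 and 0.126. The circRNA call was also lost with both groups fitted alone (0.0677) and without wild type replicate 2 (0.0539). Of the 7065 exonic bases of Becn1, 3104 overlap Cntd1 on the other strand, so its value is uncertain where counting ignored the strand. Pik3c3 (5.47 to 7.16 FPKM), Pik3r4 (4.15 to 5.51), Atg14 (3.74 to 4.90) and Uvrag (5.86 to 7.55), its partners in the complexes, did not pass as deposited in any comparison.

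The third comparison set 5xFAD; PKR KO mice against 5xFAD EGFP. None of the 35 genes passed, beside 0.0832% of all genes by limma. Those were 9 genes, all higher in the knockout, so Eif2ak2, which was lower there, did not pass either. At an unadjusted p under 0.05 there were 8 members, or 22.9%, beside 13.0% of all genes, and ranges did not overlap for 12 members (7 higher and 5 lower), or 34.3%, beside 34.8% of all genes. The 3 smallest p-values belonged to Atg10, Wipi1 and Ulk1. Their log2 differences were -0.29 (SE 0.09), -0.37 (SE 0.14) and 0.24 (SE 0.09), and their limma adjusted p-values were 0.216, 0.273 and 0.273. With these 2 groups fitted alone, Wipi1 and Atg10 passed, at adjusted p-values of 0.0308 and 0.0473. The remaining members under that unadjusted level were Gabarap, Sqstm1, Atg2a, Atg16l2 and Uvrag, all higher in the knockout, by 0.36, 0.27, 0.16, 0.17 and 0.18.

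Wipi1 encodes a PI3P-binding protein of the forming membrane. It was at 1.77, 1.72, 1.45 and 1.65 FPKM in the knockout, 2.45 and 2.40 in 5xFAD EGFP, 2.85, 1.88, 2.28 and 2.51 with circRNA, and 2.05, 1.89 and 3.07 in wild type. All knockout libraries were below all 9 others. The library highest in Wipi1, wild type replicate 3, was also highest in Atg4c (7.68 FPKM against 4.11 to 6.11 elsewhere) and lowest in Uvrag (5.86 against 6.16 to 7.55), and it had the largest other-cell marker sum. None of the 6 oligodendrocyte markers passed between the knockout and 5xFAD EGFP by limma, with a median log2 difference of -1.40, and they summed to 225 to 375 FPKM in the knockout, 636 to 680 in 5xFAD EGFP, 306 to 786 with circRNA and 352 to 1580 in wild type, and no marker of this list was at 0 throughout a group. The part of other cells in the Wipi1 difference was not tested.

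**Figure D3:**
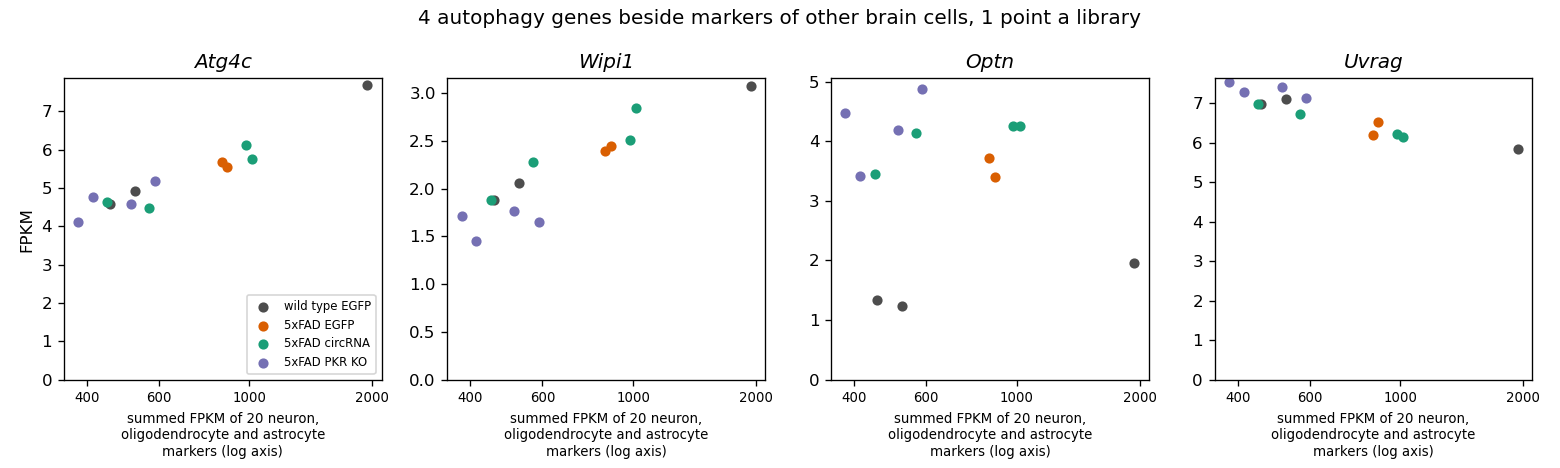
The FPKM of Atg4c, Wipi1, Optn and Uvrag (y axes, from 0) is plotted against the summed FPKM of 20 neuron, oligodendrocyte and astrocyte markers (log x axis), 1 point a library and 1 colour a group; these genes were chosen after their values were seen. Wild type replicate 3, at a marker sum of 1941, has the highest Atg4c and Wipi1, the lowest Uvrag and the highest Optn of its group. The part of other cells in these values was not tested.

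Against wild type, the knockout had 7 of 35 genes higher and 1 lower, or 22.9%, beside 37.0% of all genes (17.5% higher and 19.4% lower), and the median difference was 0.02 against -0.05. Of these genes, 6 are described above: Optn, Gabarap, Sqstm1, Atg16l2, Atg7 and Becn1. The other two, Ulk1 and Rb1cc1, belong to the ULK complex and moved in opposite directions.

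Ulk1 (chromosome 5, 110784488 to 110810097, minus strand) encodes the kinase that starts autophagy. It was at 9.36, 8.18, 9.59 and 7.95 FPKM in the knockout, 7.87, 6.80 and 7.26 in wild type, 7.49 and 6.98 in 5xFAD EGFP, while circRNA libraries had 6.59, 6.35, 7.29 and 6.74. Each knockout library was above all others, the nearest being wild type replicate 1. The difference from wild type was 0.23 (SE 0.08, adjusted p = 0.0357, limma). The call was lost under the same FPKM sum (0.02, adjusted p = 0.765), with both groups fitted alone (0.0853), and without wild type replicate 2 (0.12) or 3 (0.0674) or knockout replicate 1 (0.091) or 3 (0.0914). Its paralogue Ulk2, at 21.7 to 28.0 FPKM, did not pass as deposited in any comparison.

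Rb1cc1 (chromosome 1, 6206197 to 6276648, plus strand) encodes FIP200, the scaffold of the ULK complex, and 558 of its 14690 exonic bases overlap an antisense gene. It fell from 5.26, 4.37 and 4.90 FPKM in wild type to 3.64, 3.51, 4.00 and 3.97 in the knockout, and was at 4.20 and 4.09 in 5xFAD EGFP, while circRNA libraries had 4.31, 4.29, 3.98 and 4.43. The wild type and knockout ranges did not overlap. The difference between them was -0.29 (SE 0.07, adjusted p = 0.00544, limma), and it held under all 6 settings and with any library left out. In 5xFAD EGFP it was -0.18 (SE 0.08, adjusted p = 0.168) and with circRNA -0.15 (SE 0.07, adjusted p = 0.118), neither of which passed. Atg13 (4.54 to 5.69 FPKM) and Atg101 (2.68 to 3.78), the remaining subunits, did not pass as deposited in any comparison.

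**Figure D4:**
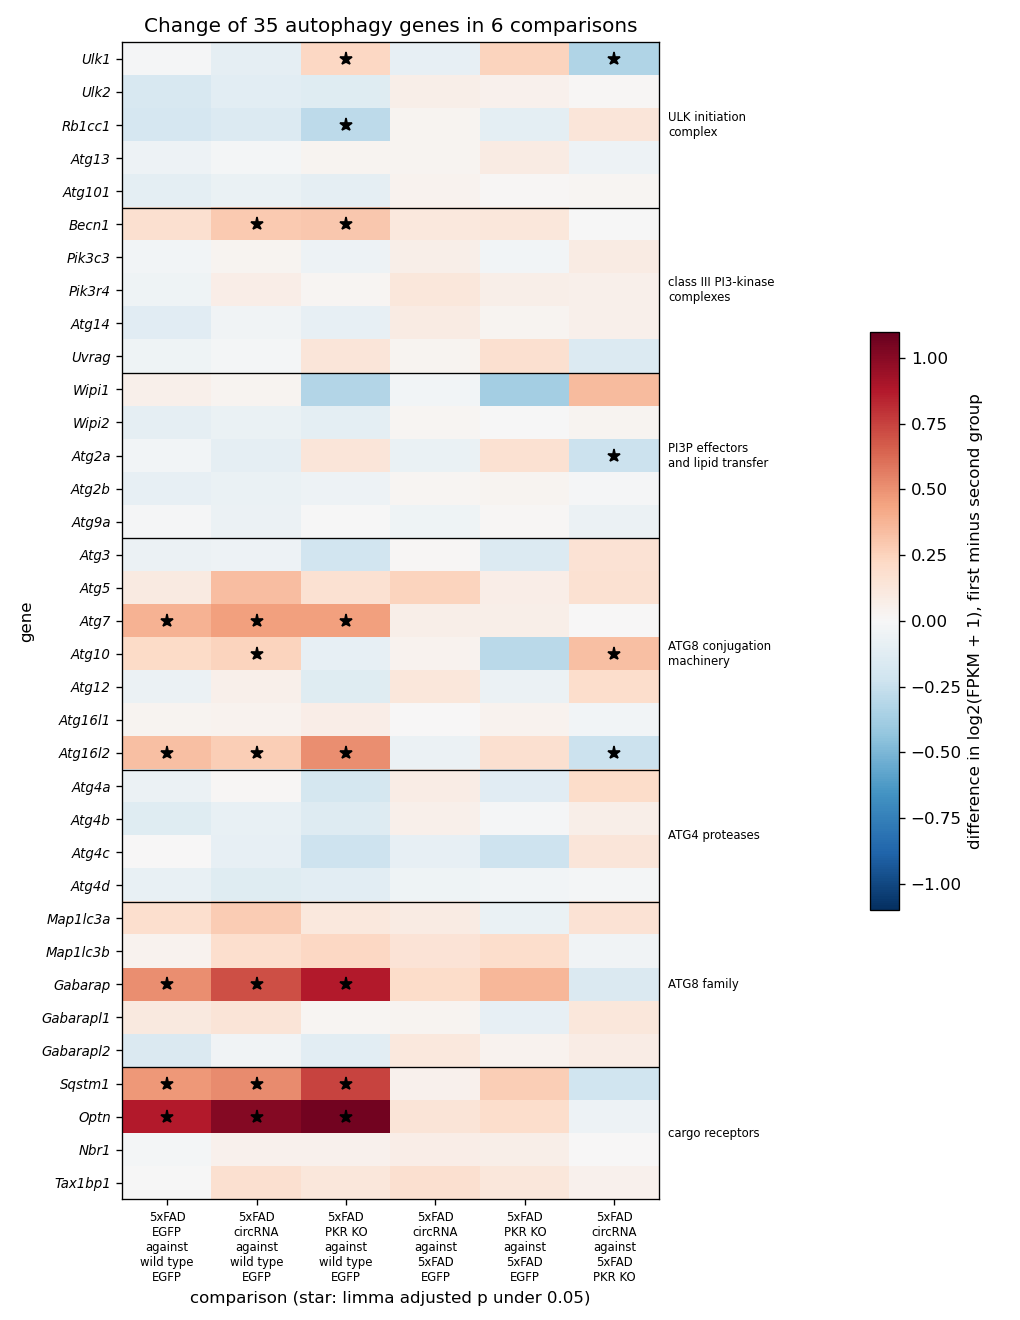
Rows are the 35 genes by role and columns the 6 comparisons; colour gives the difference in log2(FPKM + 1), first minus second group, and a star an adjusted p under 0.05 by limma. Stars stand in the 3 wild type columns for Optn, Sqstm1, Gabarap, Atg7 and Atg16l2, and the columns for circRNA and knockout against 5xFAD EGFP hold none.

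A direct comparison of both 5xFAD interventions put Atg10 higher and Ulk1, Atg2a and Atg16l2 lower with circRNA than in the knockout, which is 4 of 35 genes, or 11.4%, beside 6.19% of all genes (4.28% higher and 1.91% lower). The median difference was 0.03 over members and 0.08 over all genes. The groups differ in genotype, the labels name a vector for the circRNA group alone of the pair, and the knockout libraries carry their own library names.

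Atg10 (chromosome 13, 90935356 to 91223968, minus strand) encodes the E2-like enzyme that joins Atg12 to Atg5. It was at 2.66, 2.90, 2.81 and 3.13 FPKM with circRNA, 2.12, 2.03, 2.04 and 2.11 in the knockout, 2.61 and 2.94 in 5xFAD EGFP and 2.24, 2.66 and 1.93 in wild type. The circRNA and knockout libraries did not overlap, and the depth behind the gene was 167 to 277 fragments. The difference was 0.33 (SE 0.07, adjusted p = 0.0213, limma), and 0.25 (SE 0.08, adjusted p = 0.0318) between circRNA and wild type, whose ranges overlapped. The latter was lost under 4 of 6 settings, including the same FPKM sum (0.04, adjusted p = 0.737). It also failed when wild type replicate 1 (0.0698) or 3 (0.124) was left out, or circRNA replicate 2 (0.0688) or 4 (0.0748).

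Ulk1 was lower with circRNA by a log2 difference of -0.33 (SE 0.07, adjusted p = 0.0235, limma) and Atg16l2 by -0.24 (SE 0.06, adjusted p = 0.0465). Atg2a (chromosome 19, 6241668 to 6262335, plus strand), a lipid transfer protein that feeds the growing membrane, was at 4.42, 4.67, 5.20 and 4.78 FPKM with circRNA and 5.99, 6.19, 5.52 and 5.42 in the knockout, against 5.01 and 5.08 in 5xFAD EGFP and 5.09 to 5.23 in wild type. The circRNA and knockout ranges did not overlap, with a difference of -0.23 (SE 0.06, adjusted p = 0.0383). None of the 4 calls was left without knockout replicate 1, 2 or 3, and 1 was left without circRNA replicate 1 or 2 and 2 without circRNA replicate 4 or either 5xFAD EGFP library. In those fits the adjusted p of Ulk1 was 0.0509 to 0.078 without knockout replicate 1, 2 or 3 and 0.0526 to 0.0721 without circRNA replicate 1 or 2. Wipi2 (3.33 to 4.67 FPKM), Atg2b (3.77 to 4.66) and Atg9a (2.88 to 3.69), which act with Atg2a in membrane growth, and the 4 ATG4 proteases, which process ATG8 proteins, did not pass as deposited in any comparison.

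The calls against wild type depended on how FPKM was scaled between libraries, and Optn, Sqstm1, Gabarap, Atg7 and Atg16l2 had estimates above 0 under each scaling. With every library set to the same FPKM sum, the median of all genes shifted by -0.14 in 5xFAD EGFP, -0.23 with circRNA and -0.19 in the knockout. The members then had 4 higher and 6 lower, 4 higher and 19 lower, and 5 higher and 20 lower, or 28.6%, 65.7% and 71.4%, beside 34.4%, 52.6% and 61.1% of all genes. The 6 members lower in all 3 were Atg14, Atg2b, Atg4b, Gabarapl2, Rb1cc1 and Ulk2. Among all genes called, the share higher in the first group went from 54.6% to 19.0%, from 68.8% to 17.4% and from 47.5% to 17.7%. Gabarap, Sqstm1 and Optn were among the genes called higher in each of the 3. With median-ratio scaling there were 6 higher and 0 lower, 6 and 0, and 11 and 1, or 17.1%, 17.1% and 34.3%, beside 16.1%, 27.8% and 38.9% of all genes. The share of calls higher was 63.2%, 64.2% and 65.7%. For circRNA against the knockout, the share of all calls higher was 69.1% as deposited, 49.7% with the same sum and 17.4% with median-ratio scaling, which shifted the median by -0.10. Ulk1, Atg2a and Atg16l2 were called lower there under all 3 scalings, with Atg10 called only as deposited. Sqstm1 was also called lower there with the same sum (adjusted p = 0.0381, limma) and with median-ratio scaling (0.0232), and Uvrag with the latter (0.0356), so that 4 and 5 members were called, or 11.4% and 14.3%, beside 6.29% and 7.81% of all genes. Under the other settings the Atg16l2 call was lost with a pseudocount of 0.1 (adjusted p = 0.0516, limma), without the filter (0.0542), with both groups fitted alone (0.0579) and with a replicate block (0.0678), and in 11 of 13 fits with 1 library left out. The Atg2a call was lost with both groups fitted alone (0.0523) and with the block (0.0726), and in 8 of 13 fits.

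**Figure D5:**
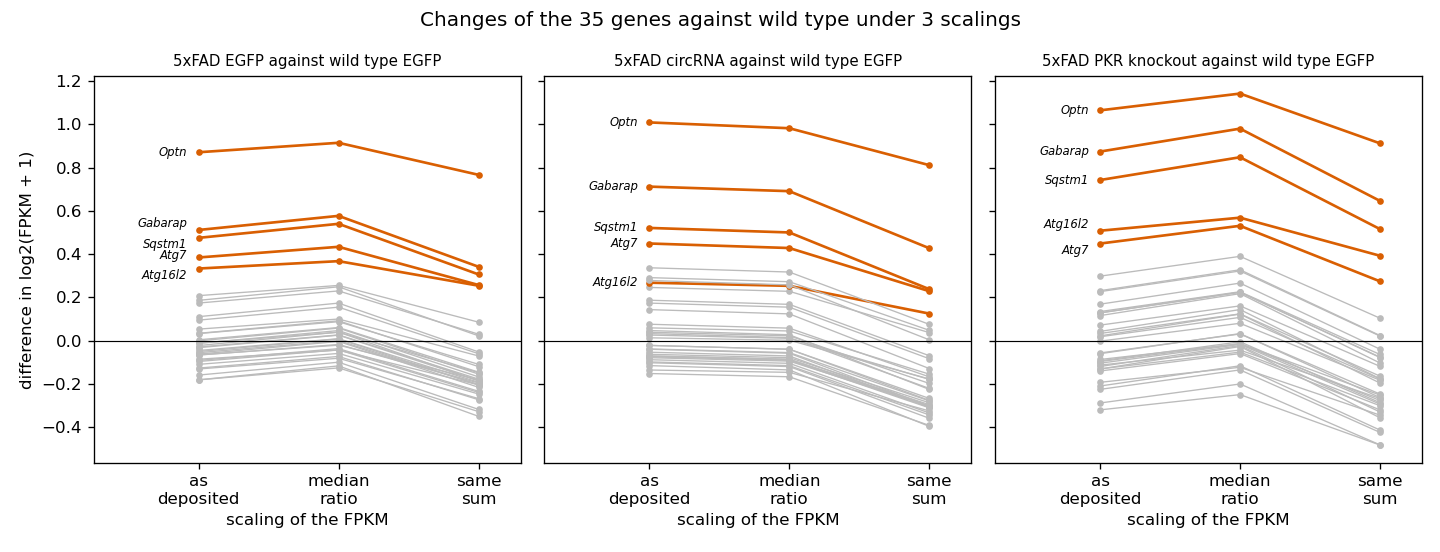
The difference in log2(FPKM + 1) from wild type is plotted for each of the 35 genes (lines) under 3 scalings of the FPKM (x axis), 1 panel for each 5xFAD group. The named genes in orange stay above 0 under every scaling, while the members below 0 number 21, 16 and 17 as deposited and 27, 26 and 27 when each library is set to the same sum.

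Other genes that act with the machinery were counted by function. Among 20 tested regulators of mTORC1, AMPK and the MiT/TFE factors (23 listed), 4 rose and 1 fell in 5xFAD EGFP against wild type, 5 and 1 with circRNA, and 6 and 2 in the knockout. These are 25.0%, 30.0% and 40.0% of the list, beside 14.0%, 25.8% and 37.0% of all genes tested, the shares against which each list below is also set. Fnip2, a folliculin partner in the nutrient signal to mTORC1, had a mean of 8.57 FPKM in wild type against 17.2, 18.8 and 20.1, with log2 differences of 0.93 (SE 0.10), 1.05 (SE 0.09) and 1.14 (SE 0.09). Rragd, a Rag GTPase, rose by 0.79, 0.88 and 0.90, and Mitf, a MiT/TFE transcription factor, by 0.55, 0.64 and 0.86. Prkab1, a regulatory subunit of AMPK, was lower by -0.71, -0.63 and -0.84, and Prkaa1, a catalytic subunit, by -0.24 in the knockout (adjusted p = 0.0378, limma), a call lost under 3 of 6 settings and in 6 of 13 fits with 1 library left out. The median of the list was -0.05, 0.02 and 0.04 in the 3 comparisons, beside -0.03, 0.02 and -0.05 over all genes.

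Of 16 tested genes of autophagosome formation outside the members (17 listed), 4, 5 and 4 rose and none fell against wild type in the 3 groups, or 25.0%, 31.2% and 25.0% beside 14.0%, 25.8% and 37.0% of all genes by limma. Nrbf2, a subunit of the Atg14-containing PI3-kinase complex, was at 2.75, 3.11 and 2.39 FPKM in wild type, 5.79 and 6.18 in 5xFAD EGFP, 7.68, 6.76, 8.13 and 6.37 in 5xFAD circRNA and 8.77, 10.3, 8.37 and 10.1 in the knockout. No values were shared between any pair of the 4 groups. Its differences from wild type were 0.90 (SE 0.12, adjusted p = 0.000343), 1.13 (SE 0.10, adjusted p = 5.6e-06) and 1.47 (SE 0.10, adjusted p = 4.94e-07) by limma. Between circRNA and the knockout it differed by -0.33 (adjusted p = 0.0494, limma), a call lost under 4 of 6 settings and in 11 of 13 fits with 1 library left out, at adjusted p-values of up to 0.14. In that comparison Ei24, Tmem41b and Bcl2 of the same list were higher with circRNA, by 0.29, 0.32 and 0.30. The Bcl2 call (adjusted p = 0.0455, limma) was lost under 5 of 6 settings and in 10 of 13 fits, and that of Tmem41b (0.0441) under 5 and in 9, while that of Ei24 held in each. Vmp1, a scramblase of the endoplasmic reticulum, was 8.74 FPKM in wild type and 19.7, 18.6 and 22.1 in the 5xFAD groups. Tecpr1, a tether and ATG8 conjugation factor at lysosomes, rose by 0.60, 0.66 and 0.88, and Bcl2, which binds Beclin 1, by 0.69, 0.80 and 0.50.

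For fusion with the lysosome, 2, 7 and 8 of 15 tested genes (16 listed) rose against wild type and none fell, or 13.3%, 46.7% and 53.3% beside 14.0%, 25.8% and 37.0% of all genes. Lamp1 and Lamp2 encode lysosomal membrane proteins. Lamp1 had means of 128 FPKM in wild type and 203, 249 and 229 in the 5xFAD groups, with differences of 0.68 (SE 0.16), 0.96 (SE 0.13) and 0.85 (SE 0.13), and Lamp2 rose by 0.53, 0.72 and 0.38. The Lamp1 call in 5xFAD EGFP (adjusted p = 0.0142, limma) was lost with both groups fitted alone (0.157) and with a replicate block (0.0546). The Lamp2 call in 5xFAD EGFP (adjusted p = 0.0409, limma) was lost under 4 of 6 settings and in 7 of 13 fits with 1 library left out, and that in the knockout (0.0364) under 3 settings and in 4 fits. Rab7, the GTPase of late endosomes, rose by 0.55 with circRNA and 0.38 in the knockout, and its adaptor Plekhm1 by 0.24 and 0.52. Under the same FPKM sum the Plekhm1 difference with circRNA was -0.01 (adjusted p = 0.839). Vps18, a subunit of the tethering complexes, rose by 0.43 in the knockout.

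Of 17 cargo receptor genes outside the members, 0 passed in 5xFAD EGFP by limma, 4 rose with circRNA, and 3 rose and 1 fell in the knockout, which are 0.0%, 23.5% and 23.5% beside 14.0%, 25.8% and 37.0% of all genes. Phb2, a mitochondrial prohibitin, rose by 0.51 and 0.41, and Retreg1, an endoplasmic reticulum receptor, by 0.44 and 0.29. The Retreg1 call in the knockout (adjusted p = 0.0482, limma) was lost under 3 of 6 settings and in 9 of 13 fits with 1 library left out, and its difference was 0.06 under the same FPKM sum (adjusted p = 0.557). Ccpg1, another receptor of the endoplasmic reticulum, rose by 0.31 and 0.34. Bnip3, a mitochondrial receptor, rose by 0.48 with circRNA, and Tollip was lower by -0.25 in the knockout.

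NRF2 targets were counted because p62 holds back the NRF2 inhibitor Keap1: of 11 tested (12 listed), 2 rose in 5xFAD EGFP, 5 with circRNA, and 3 rose and 2 fell in the knockout, or 18.2%, 45.5% and 45.5% beside 14.0%, 25.8% and 37.0% of all genes. Hmox1 rose by 0.75, 0.72 and 0.97 and Prdx1 by 0.50, 0.68 and 0.41, while Gclc and Gclm, the subunits of the enzyme for glutathione synthesis, were lower in the knockout by -0.31 and -0.32. The Hmox1 call in 5xFAD EGFP (adjusted p = 0.0393, limma) was lost under 3 of 6 settings and in 7 of 13 fits with 1 library left out, at adjusted p-values of up to 0.218, and the Gclm call (0.0372) under 3 and in 5. Srxn1, which repairs oxidised peroxiredoxins, rose by 0.40 with circRNA, and Txnrd1, a thioredoxin reductase, by 0.24 with circRNA and 0.30 in the knockout. The circRNA calls of Srxn1 (adjusted p = 0.0229, limma) and Txnrd1 (0.0282) were lost under 2 and 3 settings and in 4 and 3 fits. The list median was -0.02, 0.14 and -0.09.

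In none of the 5 lists did a gene pass for circRNA or knockout against 5xFAD EGFP. Between circRNA and the knockout, Prkag2 was lower with circRNA by -0.25 (SE 0.05, adjusted p = 0.0172, limma) and Plekhm1 by -0.27 (SE 0.06, adjusted p = 0.0307), and Tollip was higher by 0.31 (SE 0.07, adjusted p = 0.0289), beside the genes of autophagosome formation given above and 6.19% of all genes. The Plekhm1 call was lost with a replicate block (0.0511) and the Tollip call with median-ratio scaling (0.0681), and each in 7 of 13 fits with 1 library left out, while the Prkag2 call was lost in 3 of those fits, without circRNA replicate 1 or knockout replicate 1 or 2 (0.0555 to 0.0594). Under the same FPKM sum the calls of Bnip3, Srxn1 and Plekhm1 with circRNA, of Rab7 and Vps18 in the knockout, of Lamp2 in 5xFAD EGFP and the knockout, and of Retreg1, Ccpg1 and Txnrd1 in both the circRNA and knockout groups were lost, at adjusted p-values from 0.0624 to 0.91 by limma. Without 5xFAD EGFP replicate 1, the calls of Lamp1, Lamp2, Mitf, Rragd, Prkab1, Tecpr1, Hmox1 and Prdx1 in that group against wild type were lost, at adjusted p-values from 0.056 to 0.218 by limma. Without its replicate 2, those of Lamp1, Lamp2, Mitf, Prkab1 and Hmox1 were lost, at 0.0814 to 0.166.

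Markers of other cells also differed between wild type and 5xFAD libraries. All 5 border macrophage markers were lower in each 5xFAD group, with summed levels of 36.0 to 57.4 FPKM in wild type and 13.3 to 24.3 in the 5xFAD libraries. Endothelial and mural markers summed to 79.3 to 182 FPKM in wild type and 33.1 to 94.0 in 5xFAD libraries, with 5, 3 and 5 of 6 tested lower. Of the 10 microglia markers, 1, 1 and 2 were lower, with Tmem119 in each. Of the 6 astrocyte markers, Gfap was higher in each 5xFAD group, with log2 differences of 1.72 (adjusted p = 0.00868, limma), 1.84 (0.000896) and 2.25 (0.000159), and Aqp4 and Gja1 were lower in the knockout, by -0.93 (0.0408) and -1.36 (0.0123). These markers summed to 93.8 to 323 FPKM in wild type, 149 to 216 in 5xFAD EGFP, 134 to 252 with circRNA and 144 to 232 in the knockout. Blood cell markers summed to 7.77 to 31.9 FPKM in wild type and 10.2 to 11.2 in 5xFAD EGFP. With circRNA they summed to 7.47 to 99.9, highest in replicate 3, and in the knockout to 4.84 to 106. No marker of these lists was at 0 throughout a group. The part of these cells in the differences of the autophagy genes was not tested.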

How the data were processed

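Total RNA labelled as microglia was extracted with TRIzol, depleted of ribosomal RNA with a RiboMinus kit, made into stranded total RNA libraries with TruSeq Gold chemistry and sequenced on a NovaSeq instrument, per the labels' protocols. HISAT2 2.1.0, Bowtie2 2.3.5, featureCounts 1.5.1 and mm10 are named in the submitters' processing notes, with no role given, and how counting treated the strand is not given in the sources used here. The authors deposited 1 table of FPKM values with 1 column for each of the 13 libraries and 19737 genes. FPKM is relative to each library's total, so a few abundant genes can move the values of all others.

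The 10817 genes that averaged 1 FPKM or more were kept, and log2(FPKM + 1) was analysed in R 4.3.3 by limma 3.58.1. The 13 libraries entered 1 model with 4 group means (9 residual degrees of freedom, eBayes with trend), and p-values were adjusted by Benjamini-Hochberg within each of 6 comparisons at a threshold of 0.05. All 35 members were tested. In simulated data with 200 changed genes, the fit recovered 46.0% to 66.0% of them at a log2 change of 0.5, depending on the comparison. At a log2 change of 1.0 it recovered 87.5% to 93.0%. Alternatives were a pseudocount of 0.1, no filter, equal FPKM sums, median-ratio scaling, each pair of groups alone, the replicate number as a block and each library left out. Depth came from the steps of low FPKM values and GENCODE M21 exon lengths, for 19394 genes. Of values below 0.3 FPKM, 91.3% to 93.1% were whole fragments within 0.02. Depth sets the counting error only, and replicate spread was larger, with chi-square per degree of freedom of at least 13.2 between libraries of a group.

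Values per library were printed for each member past the threshold in any comparison and for the 3 smallest p-values where none passed, and ATG8 genes and receptors were described whether they passed or not. From each list of other genes, up to 3 genes called in each direction in each comparison with wild type or 5xFAD EGFP, those with the largest differences, were named, and Ei24, Tmem41b and Prkag2 were named after their values were seen. Of the symbols listed, 1 was matched through a synonym and 1 had no row. The members and lists were chosen with earlier results of these data known.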

Additional observations from a re-analysis of the deposited data

Results flagged for a closer look

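In the groups of 4 libraries, the highest or lowest value was checked for its distance from the other 3 by Dixon's criterion, for 35 genes in 2 groups, or 70 sets of values. Chance marks about 1 in 20 such sets, and 3 of the 70 were marked, all in the 5xFAD circRNA group. Becn1 in replicate 3 was at 6.44 FPKM, above 5.54, 5.59 and 5.64 in the others. Atg9a, which encodes the membrane protein of the vesicles that seed autophagosomes, was at 3.44 FPKM in replicate 3, above 2.88, 2.92 and 2.97. Optn in replicate 2 was at 3.45 FPKM, below 4.14, 4.25 and 4.25. Replicate 3 had the highest FPKM sum of the 13 libraries, 170775. The circRNA calls of Becn1 and Optn against wild type held without these libraries.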

How the results depend on the processing

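Optn kept its direction and its call against wild type in all 3 5xFAD groups, under all 6 settings and with any of the 13 libraries left out. With each library set to the same FPKM sum, 10, 23 and 25 members were called against wild type in 5xFAD EGFP, 5xFAD circRNA and the knockout, of 3733, 5714 and 6639 genes in all. As deposited these were 5, 7 and 8 members of 1514, 2796 and 3997 genes. With the 2 groups fitted alone, 1 and 4 members were called in 5xFAD EGFP and 5xFAD circRNA against wild type, of 509 and 1725 genes, and 2 for the knockout against 5xFAD EGFP, of 577. That last comparison had 9 genes as deposited, 0 with a pseudocount of 0.1, without the filter or with the same sum, and 46 with median-ratio scaling. Among the named genes' calls, 1 changed direction: Plekhm1 with circRNA against wild type, at -0.013 under the same sum. Signs of members that were not called moved more widely. Estimates above 0 went from 14, 19 and 18 of 35 members as deposited to 8, 9 and 8 with the same sum against wild type, and from 28 to 10 for circRNA against 5xFAD EGFP. As deposited, the FPKM sum was 123352 to 135807 in the wild type libraries and 139019 to 170775 in the 5xFAD libraries. Setting equal sums therefore lowers 5xFAD values relative to wild type. Why the sums differ and the cause of the other shifts were not tested.

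With 1 library left out, the members called ranged from 1 to 5 in 5xFAD EGFP against wild type, 6 to 8 with circRNA, 7 to 9 in the knockout and 0 to 5 for circRNA against the knockout, and stayed at 0 for circRNA or the knockout against 5xFAD EGFP. All genes called ranged from 566 to 1998, 2171 to 2864, 3104 to 4111, 147 to 1339, 0 to 0 and 0 to 58 in that order. In 5xFAD EGFP against wild type, 2 members were left without replicate 1 of the EGFP group and 1 without replicate 2. Where a group of 2 lost a library, the lone library was assumed to vary like the other groups.

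The labels tie the replicate numbers to no shared animal, litter or day, so the libraries were not treated as paired. Of 16 same-numbered pairs, 8 correlated above 0.1. These included all 6 pairs of replicate 2, and the mean correlation was higher for same than for different numbers in 6 of 6 group combinations. A library correlated best with its own number in 14 of 32 cases. In the fit with a replicate block, members called were 4, 6 and 9 against wild type in the same order, 0 and 0 against 5xFAD EGFP and 2 for circRNA against the knockout, of 1306, 2678, 3870, 0, 22 and 448 genes. Depth limits the genes with few fragments, such as Atg10 at 167 to 277 a library.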
